A study of Homo sapiens with 12 samples.

Results

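FBN2, TNC, FN1 and TGFBI encode secreted glycoproteins of the extracellular matrix, and their mRNA was followed in Ishikawa cells, a human endometrial adenocarcinoma cell line, with and without knockdown of ARID1A. The 4 genes were chosen by name, as matrix glycoprotein genes lower in the knockdown arm, out of 45320 genes in the count files. All 4 passed the filter on low counts, as did 17020 genes in all. Since the difference between arms chose them, their values in that comparison are given as a description, with no test.

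Fibrillin-2, the product of FBN2, assembles into microfibrils, the scaffold on which elastic fibres form and to which latent TGF-beta complexes bind. Fibronectin, from FN1, is laid down as fibrils through integrin alpha5 beta1, and tenascin-C, from TNC, binds fibronectin and modifies cell adhesion to it. TGFBI encodes a secreted adhesion protein with fasciclin domains and was named for its induction by TGF-beta. In the endometrium these proteins belong mostly to the stroma, and carcinoma cells can also make them.

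One arm carried a hairpin against ARID1A (shARID1A) and the control arm a hairpin named shNC. ARID1A belongs to the BAF form of the SWI/SNF complexes, which move nucleosomes. Each arm received 10 nM 17-beta-estradiol (E2) with 100 nM fulvestrant, 10 nM E2 alone, or the vehicle DMSO, for 8 h, with 2 libraries per group and 12 libraries in all. E2 is the ligand of the estrogen receptor, and fulvestrant is an antagonist that leads to the receptor's degradation. The cells of every group had been held for at least 4 days in medium without phenol red and with stripped serum, which lowers steroid hormones. The labels give neither the number of hairpins or clones nor the cultures behind the 2 libraries of each group. P-values thus measure only how libraries vary, possibly for technical reasons, and ARID1A knockdown cannot be told apart from other ways in which the arms differ.

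Libraries held 28810351 to 38657162 counts over genes. ARID1A stood at 57.4 ± 2.63 CPM (counts per TMM-scaled library size) in shARID1A libraries and 117.6 ± 5.04 CPM in shNC libraries (SD, n = 6 each), that is 48.9% of the shNC level, and the ranges of 53.8 to 61.7 CPM and 109.9 to 123.3 CPM did not overlap. The counted exons of ARID1A hold 6655 bases, against 15928 in the GENCODE v29 annotation. The epithelial keratin genes KRT7, KRT8 and KRT18 were expressed, and MUC1, ESRP2, CLDN7 and ELF3 had arm means of 40.5 to 104.8 CPM. EPCAM and PAX8 had 0.747 and 1.79 CPM in shARID1A and 1.52 and 2.55 CPM in shNC. CDH1, KRT19, CLDN4, ESRP1 and GRHL2, which also define epithelial cells, were below 1 CPM in every library. Ishikawa is the name in the labels, these low values are unusual for an epithelial line, and the identity of the line was not tested. The 14 epithelial markers in the files summed to 1236 to 1403 CPM in shARID1A libraries and 1518 to 1660 CPM in shNC libraries. They did not move together: of 10 tested, 4 were called lower (KRT8, KRT18, MUC1 and ELF3) and 2 higher (KRT7 and ESRP2) with DMSO. Over all tested genes 9.5% were called lower and 9.7% higher with DMSO. Stromal fibroblast markers summed to 1595 to 1849 CPM in shARID1A libraries and 1397 to 1517 CPM in shNC libraries, mostly from S100A4, VIM and COL5A1. The higher sum came with S100A4, at 982 CPM in shARID1A and 610 CPM in shNC, and COL1A1 was also called higher. VIM had 521 CPM in shARID1A and 578 CPM in shNC, COL5A1 had 197 and 223 CPM, and DCN had 0.175 and 1.17 CPM in the same order, with DCN called lower in all 3 treatments. Of 6 fibroblast markers tested, 2 were called lower and 2 higher with DMSO. Of that list, COL1A2, COL3A1, COL6A3, PDGFRA, LUM and POSTN were below 1 CPM, and THY1 and FAP had 0 counts. Endothelial markers summed to at most 0.270 CPM in shARID1A libraries and 0.282 CPM in shNC libraries, and smooth muscle markers to at most 4.73 and 4.90 CPM. Immune markers summed to 2.13 to 3.73 CPM in shARID1A libraries and 1.36 to 1.99 CPM in shNC libraries. The mitochondrially encoded share of counts was 5.50 to 5.72% in shARID1A libraries and 4.76 to 5.12% in shNC libraries. The part of these shifts in the results was not tested.

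The promoters of the 4 genes are shown because the genes were lower together in one arm, so that a reader can see what the start regions hold in common. Each runs from 250 bases before to 50 bases after the start of the gene in RefSeq, build GRCh38.p14, 5′ to 3′ on the gene's strand. Capitals mark matches, on either strand, to the motifs listed after the sequences.
FBN2, chr5:128538196-128538495, minus strand: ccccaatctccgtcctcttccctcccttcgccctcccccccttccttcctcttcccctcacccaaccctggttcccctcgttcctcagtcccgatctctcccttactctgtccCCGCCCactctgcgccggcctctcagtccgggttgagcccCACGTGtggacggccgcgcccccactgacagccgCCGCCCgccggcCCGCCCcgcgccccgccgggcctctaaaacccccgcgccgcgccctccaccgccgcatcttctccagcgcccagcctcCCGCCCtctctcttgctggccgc
TNC, chr9:115118108-115118407, minus strand: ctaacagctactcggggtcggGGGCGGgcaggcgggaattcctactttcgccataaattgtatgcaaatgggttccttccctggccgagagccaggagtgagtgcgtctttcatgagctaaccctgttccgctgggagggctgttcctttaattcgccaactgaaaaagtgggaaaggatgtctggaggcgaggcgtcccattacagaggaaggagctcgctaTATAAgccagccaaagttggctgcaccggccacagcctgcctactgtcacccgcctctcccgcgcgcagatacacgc
FN1, chr2:215436019-215436318, minus strand: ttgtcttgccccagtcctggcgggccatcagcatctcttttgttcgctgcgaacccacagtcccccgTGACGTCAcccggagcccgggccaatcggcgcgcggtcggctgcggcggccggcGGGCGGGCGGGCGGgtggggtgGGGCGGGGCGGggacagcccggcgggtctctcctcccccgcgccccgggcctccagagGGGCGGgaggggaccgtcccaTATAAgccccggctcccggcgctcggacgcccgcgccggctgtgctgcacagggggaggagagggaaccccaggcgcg
TGFBI, chr5:136028738-136029037, plus strand: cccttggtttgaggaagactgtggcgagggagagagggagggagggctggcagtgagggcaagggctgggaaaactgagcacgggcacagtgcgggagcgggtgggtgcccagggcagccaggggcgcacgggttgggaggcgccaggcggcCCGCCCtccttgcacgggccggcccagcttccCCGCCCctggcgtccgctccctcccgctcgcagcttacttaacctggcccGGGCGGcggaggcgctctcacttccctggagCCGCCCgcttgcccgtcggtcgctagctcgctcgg
The motifs were chosen after the sequences had been seen, and both strands were searched. They were TATAA (TATA box, in 20.4% of 35116 promoters of the same length), GGGCGG (GC box, 45.0%), TGACGTCA (cAMP response element, 1.85%), TGANTCA (AP-1, 7.71%), CACGTG (E-box, 7.26%), GGAATG (TEAD, 14.0%) and the full palindromic estrogen response element (0.0570%). A TATAA match lay from -27 to -23 in TNC and from -28 to -24 in FN1, counted from the start as +1, and FBN2 and TGFBI held none in these windows. GC boxes were found in all 4 promoters, with 4 in FBN2, 1 in TNC, 6 in FN1, some of which overlap each other, and 4 in TGFBI. The cAMP response element lay in FN1 from -183 to -176 and the E-box in FBN2 from -97 to -92. The letters of the AP-1, TEAD and estrogen response motifs did not occur in these 4 windows. The GC content was 72.7% in FBN2, 57.3% in TNC, 76.7% in FN1 and 72.7% in TGFBI, against a median of 58.7% over all promoters, and the ratio of observed to expected CpG was 1.00, 0.731, 0.864 and 0.688 in the same order, against a median of 0.579. A match describes the letters and is not a binding site.

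FBN2 had the highest level per exon length of the 4 genes, and its difference between arms was of like size in each treatment. In the hg19 annotation of the count files it spans chr5:127663762-127873916 on the minus strand. In shARID1A libraries FBN2 had 57.4 and 50.3 CPM with E2 plus fulvestrant, 53.8 and 53.0 CPM with E2, and 56.6 and 50.2 CPM with DMSO. In shNC libraries it had 297 and 275 CPM with E2 plus fulvestrant, 290.0 and 292 CPM with E2, and 302 and 286 CPM with DMSO. Every shARID1A library lay below every shNC library, and the lowest shNC value was 4.79 times the highest shARID1A value. The log2 difference, shARID1A over shNC, was -2.41 (SE 0.07) with E2 plus fulvestrant, -2.45 (SE 0.07) with E2 and -2.46 (SE 0.07) with DMSO. The arm means were 53.6 ± 3.03 CPM in shARID1A and 290.2 ± 9.32 CPM in shNC (SD, n = 6 each), 18.5% of the shNC level. The counted exons cover only part of the gene: 36 merged exon blocks of 6846 bases were counted. Their lengths equal blocks 7 to 42 of the 73 blocks of GENCODE v29. The blocks before block 7 and the 31 blocks on the 3′ side thus did not add reads. Of the counted bases, 56 are shared with SLC27A6 on the other strand, which had 111 counts over all 12 libraries.

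TNC, at chr9:117782806-117880486 on the minus strand, encodes the fibronectin-binding tenascin-C and also separated the arms in every treatment. In shARID1A libraries TNC had 3.53 and 3.95 CPM with E2 plus fulvestrant, 4.06 and 3.81 CPM with E2, and 2.87 and 2.36 CPM with DMSO. In shNC libraries it had 21.6 and 23.2 CPM with E2 plus fulvestrant, 20.7 and 22.01 CPM with E2, and 21.7 and 20.3 CPM with DMSO. The arms did not overlap, and within shARID1A both DMSO libraries were the lowest of the 6. The log2 difference was -2.58 (SE 0.15) with E2 plus fulvestrant, -2.44 (SE 0.15) with E2 and -3.0 (SE 0.17) with DMSO. The arm means were 3.43 ± 0.67 CPM in shARID1A and 21.6 ± 1.03 CPM in shNC (SD, n = 6 each), 15.9% of the shNC level.

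FN1, at chr2:216225163-216300796 on the minus strand, had the lowest counts of the 4 genes and the widest errors. In shARID1A libraries FN1 had 1.20 and 1.11 CPM with E2 plus fulvestrant, 1.12 and 0.892 CPM with E2, and 1.12 and 0.775 CPM with DMSO. In shNC libraries it had 7.27 and 6.83 CPM with E2 plus fulvestrant, 8.30 and 6.96 CPM with E2, and 6.52 and 7.65 CPM with DMSO. All 6 shARID1A libraries lay below all 6 shNC libraries, with 23 to 35 counts per shARID1A library and 213 to 260 counts per shNC library. For 23 counts the exact Poisson 95% interval runs from 14.6 to 34.5 counts, counting error only. The log2 difference was -2.60 (SE 0.26) with E2 plus fulvestrant, -2.93 (SE 0.25) with E2 and -2.89 (SE 0.27) with DMSO. The arm means were 1.04 ± 0.17 CPM in shARID1A and 7.25 ± 0.64 CPM in shNC (SD, n = 6 each), 14.3% of the shNC level.

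TGFBI, at chr5:135364677-135399507 on the plus strand, showed the smallest difference of the 4. In shARID1A libraries TGFBI had 8.99 and 8.95 CPM with E2 plus fulvestrant, 9.87 and 11.1 CPM with E2, and 9.38 and 10.5 CPM with DMSO. In shNC libraries it had 29.98 and 29.3 CPM with E2 plus fulvestrant, 33.7 and 31.7 CPM with E2, and 30.6 and 32.6 CPM with DMSO. The arms did not overlap, and the lowest shNC value was 2.63 times the highest shARID1A value. The log2 difference was -1.72 (SE 0.12) with E2 plus fulvestrant, -1.63 (SE 0.11) with E2 and -1.67 (SE 0.12) with DMSO. The arm means were 9.79 ± 0.86 CPM in shARID1A and 31.3 ± 1.66 CPM in shNC (SD, n = 6 each), 31.3% of the shNC level. Bulk RNA cannot tell fewer cells that express a gene from less RNA per cell, for any of these genes.

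**Figure D1:**
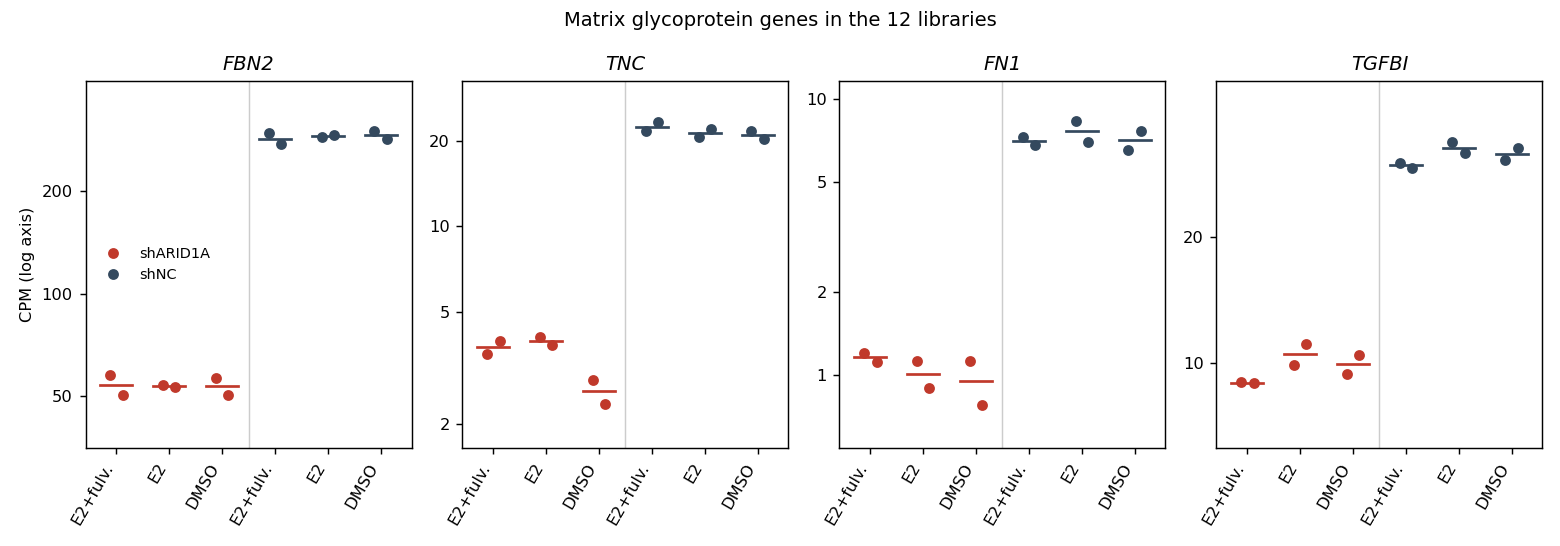
Level of each gene in each library, in CPM on a log axis, by arm and treatment, with a point per library and a bar at the group mean. In all 4 panels the 6 shARID1A points lie below the 6 shNC points, and TNC in shARID1A is lowest with DMSO, at 2.87 and 2.36 CPM.

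Per kilobase of counted exon, the order of levels was FBN2, TGFBI, TNC and FN1 in both arms. In shARID1A the means were 7.82, 1.26, 0.402 and 0.0609 RPKM (CPM per kilobase of exon) in that order, and in shNC 42.4, 4.04, 2.53 and 0.426 RPKM. No pair of neighbours in that order overlapped in range within an arm. FN1's merged exon length, 17040 bases, sums all its annotated exons, and FBN2's counted exons are part of the gene, so these levels per length depend on the annotation.

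For the size of the difference relative to other genes, the shARID1A over shNC changes with DMSO were set among the 10338 genes averaging 5 CPM or more. Of these, 0 had a more negative difference than TNC, 3 than FBN2, 1 than FN1, itself under 5 CPM on average, and 24 than TGFBI. Among all 17020 tested genes, low ones included, 84 had a more negative difference than TNC, 134 than FBN2, 94 than FN1 and 343 than TGFBI. In that contrast 19.2% of tested genes were called in either direction, and 9.5% lower, at an adjusted p under 0.05 by edgeR's quasi-likelihood test. With E2 plus fulvestrant 24.2% were called in either direction and 12.8% lower, and with E2 27.2% and 13.8%. These ranks and shares describe the contrast that chose the genes. The ranks are no test, and nothing is read from the shares for the 4 genes.

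The treatments were then compared within each arm, a question the choice of genes did not use. Estrogen and fulvestrant made no called difference to any of the 4 genes in either arm. With edgeR's quasi-likelihood test, 0 of 36 tests of these genes were called, over 6 treatment contrasts and 3 differences between arms. DESeq2 also called 0, but it did not give every test an adjusted p. It gave none to FN1 and TNC for E2 plus fulvestrant against E2 in shARID1A. Nor did it give one to FN1, TNC and TGFBI for E2 plus fulvestrant against DMSO in shNC. By edgeR, 2 tests had an unadjusted p under 0.05. Few genes of any kind passed. For E2 against DMSO 0.0235% of the 17020 genes were called in shARID1A and 0.00588% in shNC. For E2 plus fulvestrant against E2 the share was 0.00588% in each arm, and for E2 plus fulvestrant against DMSO it was 0% in shARID1A, where 695 genes had an unadjusted p under 0.05 and DESeq2 also called 0, and 0.0118% in shNC. These counts hang on single libraries: E2 plus fulvestrant against E2 in shARID1A had 1 call, and 27 without replicate 1 of shARID1A with E2 plus fulvestrant.

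TNC had the lowest unadjusted p-values of the 4 genes. With E2 against DMSO in shARID1A, TNC had a log2 difference of 0.58 (SE 0.24, 95% interval 0.09 to 1.08), with an edgeR p of 0.0226 and an adjusted p of 0.717. Both E2 libraries were above both DMSO libraries in shARID1A. In shNC the TNC difference was 0.02 (SE 0.11), and the difference between arms was 0.56 (SE 0.26), with an edgeR p of 0.0431 and an adjusted p of 0.775. In that difference between arms 0.0294% of genes were called, against 0.0118% for E2 plus fulvestrant against E2 and 0% for E2 plus fulvestrant against DMSO (814 with an unadjusted p under 0.05, and 0 by DESeq2). E2 plus fulvestrant against DMSO gave TNC 0.51 (SE 0.25, edgeR adjusted p 0.999) in shARID1A and 0.09 (SE 0.11, edgeR adjusted p 0.812) in shNC. Both comparisons use the same DMSO libraries.

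FBN2 was the most tightly bounded, with a log2 difference for E2 against DMSO of -0.00 (SE 0.08, 95% interval -0.17 to 0.17) in shARID1A and -0.01 (SE 0.06, -0.14 to 0.11) in shNC. TGFBI gave 0.09 (SE 0.14, -0.20 to 0.38) in shARID1A and 0.05 (SE 0.09, -0.14 to 0.24) in shNC. For E2 plus fulvestrant against E2, TGFBI gave -0.23 (SE 0.15, edgeR adjusted p 0.616) in shARID1A, the lowest adjusted p among these 36 tests, and -0.14 (SE 0.09, edgeR adjusted p 0.739) in shNC. FN1 had the widest interval for E2 against DMSO in shARID1A, at 0.07 (SE 0.43, -0.81 to 0.95), so changes within that interval were not excluded.

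**Figure D2:**
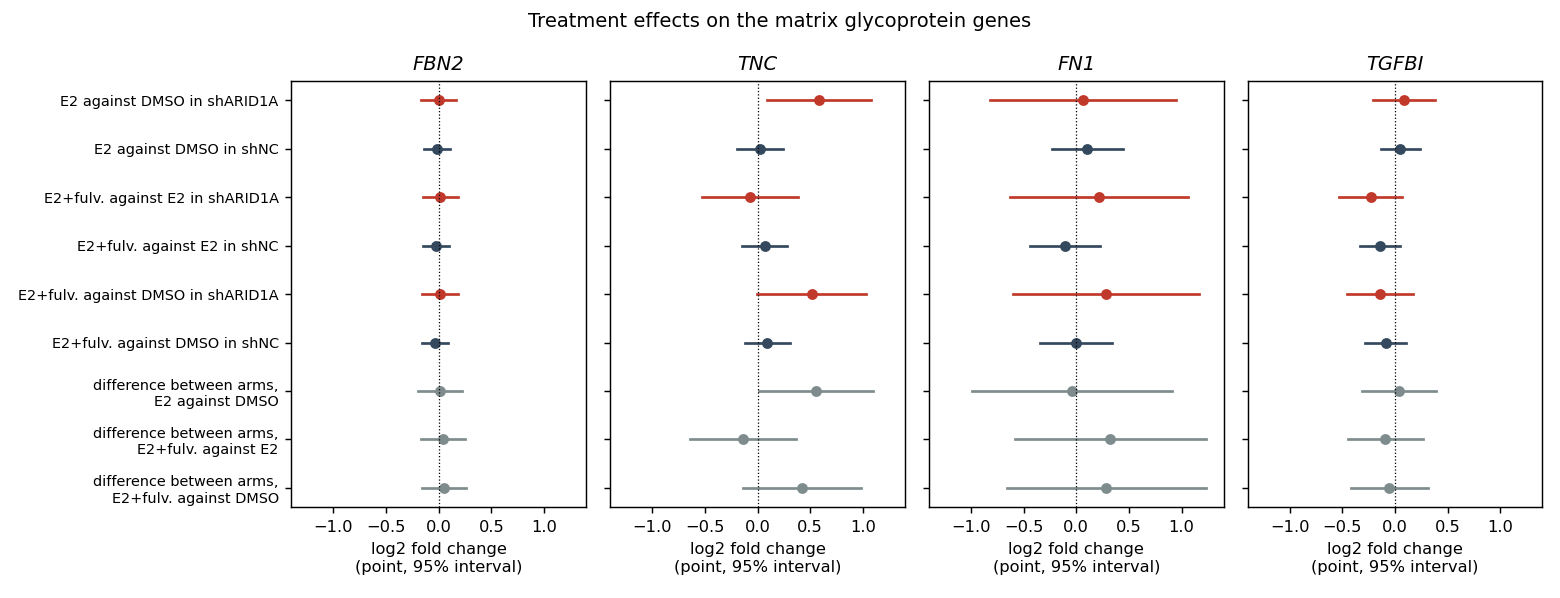
Log2 differences of each gene for the treatment contrasts in shARID1A and shNC and for the 3 differences between arms, with 95% intervals from edgeR. The TNC intervals for E2 against DMSO in shARID1A, 0.09 to 1.08, and for the difference between arms of E2 against DMSO, 0.02 to 1.10, lie above 0. The FBN2 points, not their intervals, stay within 0.05 of 0 in all treatment contrasts.

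The other genes of these pathways were taken from 6 lists: elastic fibre and microfibril, adhesive and matricellular glycoproteins, their receptors, TGF-beta signalling, matrix proteases and inhibitors, and mesenchymal transcription factors. Without the 4 genes they hold 171 genes, of which 143 are in the files and 100 were tested, and some genes stand in more than 1 list. Of these, 32 were lower and 15 higher in shARID1A than in shNC with E2 plus fulvestrant, 31 lower and 18 higher with E2, and 31 lower and 12 higher with DMSO. The 15 became 8 without replicate 2 of shNC with E2 plus fulvestrant. Over all tested genes, 12.8% were called lower and 11.4% higher with E2 plus fulvestrant. With E2 these shares were 13.8% and 13.4%, and with DMSO 9.5% and 9.7%. The median log2 difference of the 100 genes was -0.12, -0.11 and -0.06 in the same order, against -0.03, -0.02 and -0.01 over all tested genes. Since low genes are called less often, the share was also read among the 10338 genes averaging 5 CPM or more, a split added after the values were seen. It holds 76 list genes. With E2 plus fulvestrant 40.8% of them were lower and 15.8% higher, against 17.1% and 17.2% of all such genes. With E2 39.5% were lower and 18.4% higher, against 18.5% and 20.1%. With DMSO 39.5% were lower and 14.5% higher, against 12.3% and 14.7%. The lists were written with earlier results of these data known, and these shares are no test of the lists. Counts of the single lists, given next, rest on few genes. They were not tested against the shares over all tested genes.

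Among 21 elastic fibre genes, 8 fell and 2 rose in shARID1A with E2 plus fulvestrant, 7 fell and 1 rose with E2, and 9 fell and 1 rose with DMSO. LOX, which cross-links elastin and collagen, averaged 10.9 ± 0.67 CPM in shARID1A and 24.8 ± 2.37 CPM in shNC (SD, n = 6 each), with a log2 difference of -1.21 with E2 plus fulvestrant, -1.24 with E2 and -1.11 with DMSO (SE 0.13, 0.12 and 0.13, edgeR adjusted p 1.44e-07 with DMSO). ADAMTS10, a protease tied to fibrillin microfibrils, had 8.22 CPM in shARID1A and 16.5 CPM in shNC, and differed by -1.23 with DMSO (SE 0.15, edgeR adjusted p 2.38e-07). The latent TGF-beta binding proteins LTBP1 and LTBP4 fell by 0.31 and 0.33 on the log2 scale with DMSO, while FBLN5, a fibulin of elastic fibre assembly, rose by 0.68 (SE 0.14, edgeR adjusted p 0.000491). FBN1, the closest relative of FBN2 and named here after its values were seen, had 196.7 CPM in shARID1A and 245.6 CPM in shNC, and differed by -0.44 with E2 plus fulvestrant, -0.26 with E2 and -0.26 with DMSO (SE 0.06 each, edgeR adjusted p 0.00123 with DMSO).

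The adhesive glycoproteins moved both ways. Among 22 of them, 6 fell and 8 rose with E2 plus fulvestrant, 6 fell and 9 rose with E2, and 6 fell and 6 rose with DMSO. With DMSO, NPNT, the integrin ligand nephronectin, fell by 1.03 on the log2 scale, to 74.9 CPM over the shARID1A libraries, against 164.6 CPM in shNC. THBS1, thrombospondin-1, differed by -0.98, with 16.8 CPM in shARID1A and 34.8 CPM in shNC. HSPG2, the basement membrane proteoglycan perlecan, rose by 0.75, with 543 CPM in shARID1A and 333 CPM in shNC. CYR61 and NID2, a matricellular protein and a basement membrane nidogen, rose by 0.58 and 0.64. Each of these 5 had an edgeR adjusted p of at most 1.24e-05 with DMSO.

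Among 15 receptor genes, 6 fell and 2 rose with E2 plus fulvestrant and with E2, and 5 fell and 2 rose with DMSO. ITGA5, the alpha subunit of the fibronectin receptor, had 112.5 ± 8.13 CPM in shARID1A and 215.0 ± 10.9 CPM in shNC (SD, n = 6 each), a log2 difference of -0.95 with DMSO (SE 0.07, edgeR adjusted p 2.17e-12). ITGB5, an integrin beta subunit that pairs with alpha v, rose by 0.64 with DMSO (SE 0.06, edgeR adjusted p 2.88e-10), with 479 CPM in shARID1A and 307 CPM in shNC. ITGA2, ITGB8 and PLAUR, the urokinase receptor, differed by -1.15, -0.93 and -0.53 with DMSO, and each of them was called in all 3 treatments.

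Among 21 TGF-beta genes, 7 fell and 0 rose with E2 plus fulvestrant, 8 fell and 1 rose with E2, and 7 fell and 0 rose with DMSO. The ligand gene TGFB1 had 38.6 ± 3.35 CPM in shARID1A and 68.9 ± 4.71 CPM in shNC (SD, n = 6 each). Its log2 difference was -0.86 with E2 plus fulvestrant, -0.98 with E2 and -0.67 with DMSO (SE 0.09, 0.08 and 0.08, edgeR adjusted p 3.87e-07 with DMSO). The receptor gene TGFBR1 differed by -0.58, -0.64 and -0.41 in the same order. PMEPA1, a feedback inhibitor, differed by -0.50 with DMSO.

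Among 12 protease and inhibitor genes, 4 fell and 3 rose with E2 plus fulvestrant, 3 fell and 5 rose with E2, and 3 fell and 3 rose with DMSO. SERPINE2, a serpin that inhibits thrombin and urokinase, and BMP1, which processes procollagen, differed by -1.05 and -0.77 with DMSO. MMP28, a matrix metalloproteinase, rose by 1.93 with DMSO (SE 0.26, edgeR adjusted p 1.59e-06), with 6.39 CPM in shARID1A and 1.82 CPM in shNC, and TIMP2, a metalloproteinase inhibitor, rose by 0.39. Of 11 mesenchymal transcription factor genes, 3 fell and 0 rose in each treatment. These were FOSL1, RUNX1 and ZEB1, at -0.75, -0.64 and -0.59 with DMSO. SRF and ETS1 were not called, at 0.15 each with DMSO (edgeR adjusted p 0.215 and 0.294).

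**Figure D3:**
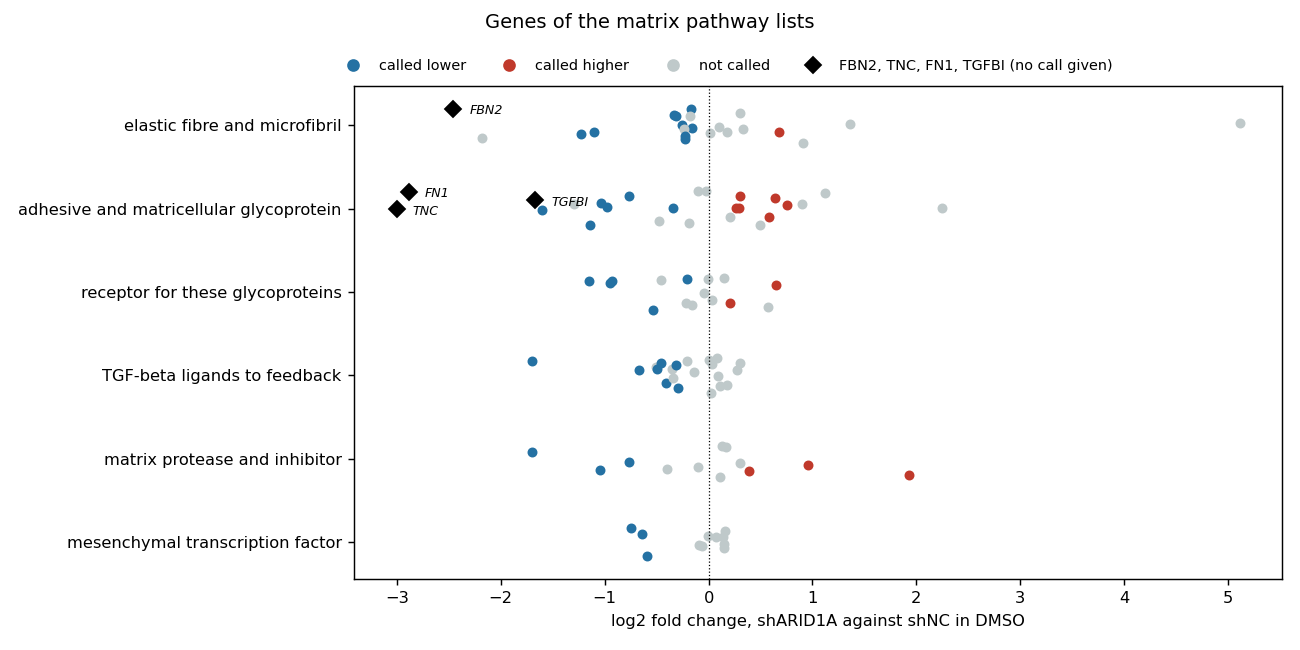
Log2 differences, shARID1A over shNC with DMSO, of the genes of the 6 lists, with the 4 matrix glycoprotein genes marked apart. Of the other list genes that are named in the text and called, ADAMTS10 at -1.23 is the lowest and MMP28 at 1.93 the highest. SPOCK1, of the adhesive list and not called, stands at 2.25.

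The genes closest to each of the 4 in profile were found from log2 CPM centred on each gene's own mean over the 12 libraries, by the root mean square distance, among 9869 genes that have a symbol and average 5 CPM or more. The difference between arms, for which the 4 genes were chosen, enters these distances, and they are a description. FBN2 was closest to DRGX (0.16), TMEM255B (0.20) and AC104698.1 (0.20). Among these genes TNC was closest to FBN2 (0.23), then DRGX (0.30) and TMEM255B (0.31). FN1 averages under 5 CPM and was not among the genes searched, though its distance to TNC, 0.21, is smaller. FN1 was closest to TNC (0.21) and FBN2 (0.21), then DRGX (0.31). Close to TGFBI were GPR56 (0.11) and COL7A1 (0.12), which encodes type VII collagen of anchoring fibrils.

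Most chromosomal neighbours of the 4 genes were not called. Of the 16 nearest tested genes, 2 on each side of each gene, 3 fell and 1 rose with E2 plus fulvestrant and with E2, and 4 fell and 1 rose with DMSO. Over all tested genes 12.8% were lower and 11.4% higher with E2 plus fulvestrant, 13.8% and 13.4% with E2, and 9.5% and 9.7% with DMSO, and counts this small were not tested against those shares. Beside FBN2, SLC12A2-DT rose by 0.64 with DMSO (SE 0.11, edgeR adjusted p 7.87e-05), while SLC12A2, SLC27A6 and ISOC1 were not called. Beside TNC, PAPPA, a metalloproteinase of insulin-like growth factor binding proteins, differed by -1.71 with DMSO and its antisense gene PAPPA-AS1 by -0.91, at 1223 and 1330 kb. In GENCODE v29 all 2450 exon bases of PAPPA-AS1 lie within exons of PAPPA, and since no strand setting was used in counting, reads of the 2 genes cannot be told apart there. C9orf91 differed by -0.25 (edgeR adjusted p 0.0220, and 0.234 without replicate 2 of shARID1A with DMSO) and ATP6V1G1 was not called. Beside FN1, ATIC, an enzyme of purine synthesis, differed by -0.17 with DMSO (edgeR adjusted p 0.0491), a call lost under most alternatives. SNHG31, MREG and PECR were not called. The neighbours of TGFBI, CTC-349C3.1, H2AFY, SMAD5 and SPOCK1, were not called in any treatment. FBN2 and TGFBI lie on the same chromosome, 7.49 Mb apart. On chromosome 5, 88 of 806 tested genes (10.9%) were lower with DMSO, against 9.5% of all tested genes.

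**Figure D4:**
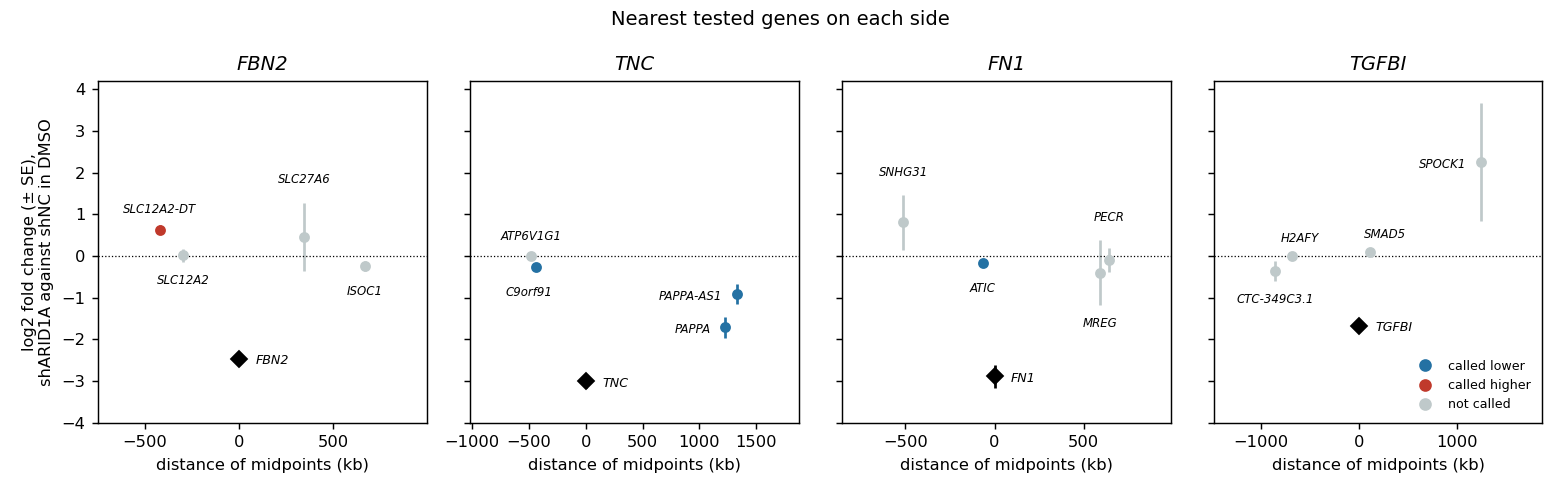
Log2 differences, shARID1A over shNC with DMSO, of the nearest tested genes on each side, against the distance between gene midpoints in kb, with SE bars. The diamonds are the 4 genes, from -3.0 for TNC to -1.67 for TGFBI, and the neighbours farthest from 0 are PAPPA at -1.71 and SPOCK1, not called, at 2.25.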

How the data were processed

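Poly(A) RNA libraries (TruSeq mRNA, per the labels' protocols) were made from 12 samples in 6 groups of 2, and all 12 were used. The authors deposited raw counts per gene, not normalized. The submitters' processing notes name FastQC, cutadapt, Trim Galore, Subread 2.0.0 and the build hg19. Counting over exons used featureCounts 2.0.0, per the file headers, and options for strand, pairs or multiple alignments do not appear there. Genes that overlap on opposite strands thus cannot be separated. The labels type the zeros of the fulvestrant dose as letters, taken here to mean 100 nM.

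The model was edgeR 4.0.16 in R 4.3.3: filterByExpr by group left 17020 genes, TMM factors scaled the libraries, and glmQLFit and glmQLFTest were run on 1 mean per group over all 12 libraries. P-values were adjusted by Benjamini-Hochberg across the tested genes in each of 12 contrasts, and a gene is called when the value is under 0.05. CPM use TMM-scaled totals, and 3 counts correspond to 0.0776 to 0.104 CPM. The Poisson interval and this floor cover counting error only, whereas intervals of log2 differences come from the edgeR fit and include the variation between libraries.

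The 4 genes and the lists were chosen with earlier results of these data known. Named are ARID1A, the 4 genes, up to 5 further genes per list with the smallest adjusted p for shARID1A against shNC with DMSO, the 3 closest profiles per gene, and the 2 nearest tested genes on each side. FBN1 is an exception to this rule, and a gene that the rule names is not reported here. RefSeq promoters matched all 4 symbols. Alternatives were DESeq2 1.42.0, RLE and upper-quartile scaling, no filter on low counts, a replicate block, only the compared groups in the fit, and leaving out each library in turn.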

Additional observations from a re-analysis of the deposited data

How the results depend on the processing

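Under all 18 alternatives 0 of the 4 genes were called in any treatment contrast or difference between arms, and the lowest adjusted p of any of them was 0.466, with DESeq2. Of 648 recomputed log2 differences of the 4 genes in these contrasts, 43 changed sign, none of them called. DESeq2 gave no adjusted p for some treatment contrasts of FN1, TNC and TGFBI. The shARID1A over shNC differences kept their sign in every alternative. Leaving out 1 library at a time gave FBN2 -2.51 to -2.32 with E2 plus fulvestrant and TGFBI -1.72 to -1.55 with E2. With DMSO it gave FBN2 -2.55 to -2.38, TNC -3.15 to -2.87, FN1 -3.18 to -2.65 and TGFBI -1.75 to -1.59. The count of other pathway genes called higher with E2 plus fulvestrant ran from 8, without replicate 2 of shNC with E2 plus fulvestrant, to 16, against 15 with all libraries. The cause was not tested. For the other named genes, 94 results were called, and of 1692 recomputed values of these, 1659 stayed called and 33 did not. ATIC with DMSO was lost under RLE scaling (adjusted p 0.0688), no filter (0.0911), the replicate block (0.05001), the compared groups alone (0.0519) and every leave-one-out of a library (lowest 0.0565). C9orf91 was lost with DMSO without replicate 1 (0.0962) or 2 (0.0803) of shNC or 2 of shARID1A (0.234), with E2 without replicate 1 (0.0539) or 2 (0.130) of shNC or 1 of shARID1A (0.225), and with E2 plus fulvestrant without replicate 2 of shNC (0.0782) or 1 of shARID1A (0.0710). SLC12A2-DT lost its call with E2 plus fulvestrant without replicate 1 of shARID1A (0.134) or replicate 2 of shNC (0.0604). PAPPA-AS1 with DMSO was lost without replicate 2 of shNC (0.0585) or of shARID1A (0.124), and PAPPA with E2 plus fulvestrant without replicate 2 of shNC (0.0781). FBLN5 with E2 plus fulvestrant was lost without replicate 2 of shNC (0.0620), and ITGB8 with E2 plus fulvestrant without replicate 1 of shNC (0.0707) or of shARID1A (0.0706) and with E2 without replicate 2 of shNC (0.0883). Over all genes, without the filter, E2 against DMSO had 37 calls in shARID1A and 12 in shNC, against 4 and 1, and E2 plus fulvestrant against E2 had 41 and 19, against 1 and 1. E2 plus fulvestrant against DMSO had 12 and 50, against 0 and 2. DESeq2 called 17 genes for E2 plus fulvestrant against E2 in shARID1A, 22 for E2 plus fulvestrant against DMSO in shNC, and 17 for the difference between arms of E2 against DMSO, against 1, 2 and 5. Leaving out 1 library gave 0 to 5 calls in shARID1A and 1 to 4 in shNC for E2 against DMSO, 1 to 27 and 1 to 5 for E2 plus fulvestrant against E2, and 0 to 4 and 0 to 10 for E2 plus fulvestrant against DMSO, with 27 and 10 without replicate 1 of shARID1A and replicate 2 of shNC, both with E2 plus fulvestrant. The difference between arms of E2 against DMSO had 2 to 17 calls, with 17 without either replicate of shARID1A with E2 plus fulvestrant. The fewest calls between arms were 2310 with E2 plus fulvestrant (without its shARID1A replicate 1), 2748 with E2 (without its shNC replicate 2) and 2005 with DMSO (without its shARID1A replicate 2), against 4120, 4633 and 3268. Same-numbered libraries' deviations from group means correlated at -0.22 to 0.27 (shNC 0.16 to 0.27) over 10324 genes. Batch was not tested. With the replicate block TNC gave 0.58 for E2 against DMSO in shARID1A, E2 against DMSO in shNC had 4 calls, the difference between arms 12, and no call of the 4 genes changed. Depth limits FN1 most, with 23 counts in its lowest library.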
